A study of Drosophila melanogaster with 6 samples.

Results

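Cytochrome P450 genes were examined in dissected eyes of aging male Drosophila melanogaster. The family was taken as every counted gene whose FlyBase symbol is Cyp followed by a digit, and 86 of 17560 genes met this rule. Cyp1 and Cyp40 share the prefix but encode cyclophilins, which are protein folding enzymes, and they were set aside. The other 84 genes, 2 of them the pseudogenes Cyp6a15Psi and Cyp6t2Psi, are the P450 family described here. They lie in 80 of the 14537 entries that the authors counted, where an entry is a gene or a group of overlapping genes counted together. Of the 80 entries, 63 hold a single gene and 17 are groups that hold 21 P450 genes, so the level of a gene in such a group cannot be told apart from that of its neighbors. The group Cyp6a9+Cyp6a19 and the group Cyp6g1+Cyp6g2 hold P450 genes alone, and the other groups also hold neighbors that are not P450s. Counts on entries were divided by median-ratio size factors to give normalized counts, and 69 of the 80 entries (52 single genes and 17 groups) had a mean of at least 10 normalized counts. By name, 22 genes belong to Cyp4 (20 entries), 24 to Cyp6 (22 entries) and 38 to other subfamilies (38 entries).

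Males at day 40 after eclosion (3 libraries) were compared with males at day 10 (3 libraries). Both ages carried UAS-GFP-Msp300KASH and rh1-GAL4 in a w, ry[506] background, so that a GFP-tagged KASH domain was expressed at both ages under a driver that acts in the outer photoreceptors. Libraries were made from ribo-depleted total RNA of whole eyes, which hold photoreceptors, pigment and cone cells, glia and other cells. The series was collected to examine splicing during aging, and the counts cover genes, exonic parts and splice junctions.

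Cytochrome P450s are heme enzymes that insert an oxygen atom into lipids, hormones and foreign compounds. Microsomal members draw electrons from the reductase Cpr and from cytochrome b5, and mitochondrial members draw them from ferredoxins and the ferredoxin reductase Dare. In insects, Cyp4 enzymes are known for fatty acid and hydrocarbon metabolism, Cyp6 and related enzymes for the breakdown of plant toxins and insecticides, and a few mitochondrial and CYP2-type enzymes for the synthesis and breakdown of ecdysone.

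Counts on genes totaled 8476220 to 12686867 per library at day 40 and 8946125 to 15029770 at day 10. The 3 replicates of an age are biological replicates by the study's design. Summed photoreceptor markers, rhodopsins and phototransduction genes, were at 909473 to 1092910 normalized counts at day 40 and at 763227 to 1360300 at day 10, and none of the 15 was at 0 in all libraries. None of them passed the test between the ages in edgeR (3 at an unadjusted p under 0.05, all higher at day 40, and 3 by DESeq2). Over all entries tested in edgeR, 1325 of 9255 had an unadjusted p under 0.05. Differences were above 0 in 11 of the 15, and ninaE alone held most of each sum. In bulk eyes, fewer cells of a type and less RNA per cell cannot be told apart.

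Which P450 genes differed between day 40 and day 10 was asked of all entries at once with the quasi-likelihood test of edgeR, at a Benjamini-Hochberg adjusted p under 0.1. Of 69 P450 entries with counts high enough to test, 3 rose at day 40 (Cyp4p2, Cyp4p1 and Cyp4d21) and 2 fell (Cyp4g1 and Cyp305a1). These 5 are 7.25% of the P450 entries tested, where 4.12% of all 9255 entries tested passed (2.14% higher and 1.98% lower at day 40). The changes of the P450 entries had a median of 0.02 on the log2 scale, beside a median of -0.0067 over all entries. The 3 libraries of one age all lay above the 3 of the other in 23 of 69 P450 entries (14 higher and 9 lower at day 40), or 33.3%, beside 20.2% of all entries tested (10.3% higher and 9.92% lower). A change of at least 1 in size was seen in 4 of 69 P450 entries, and 4.98% of all entries had one. Of the 69 changes, 55 lay within 0.5 of zero. An unadjusted p under 0.05 in edgeR was seen in 20 of 69 P450 entries, beside 1325 of all 9255 entries tested. Counts at an unadjusted p given below for subfamilies and lists are to be read beside that share of all entries.

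**Figure D1:**
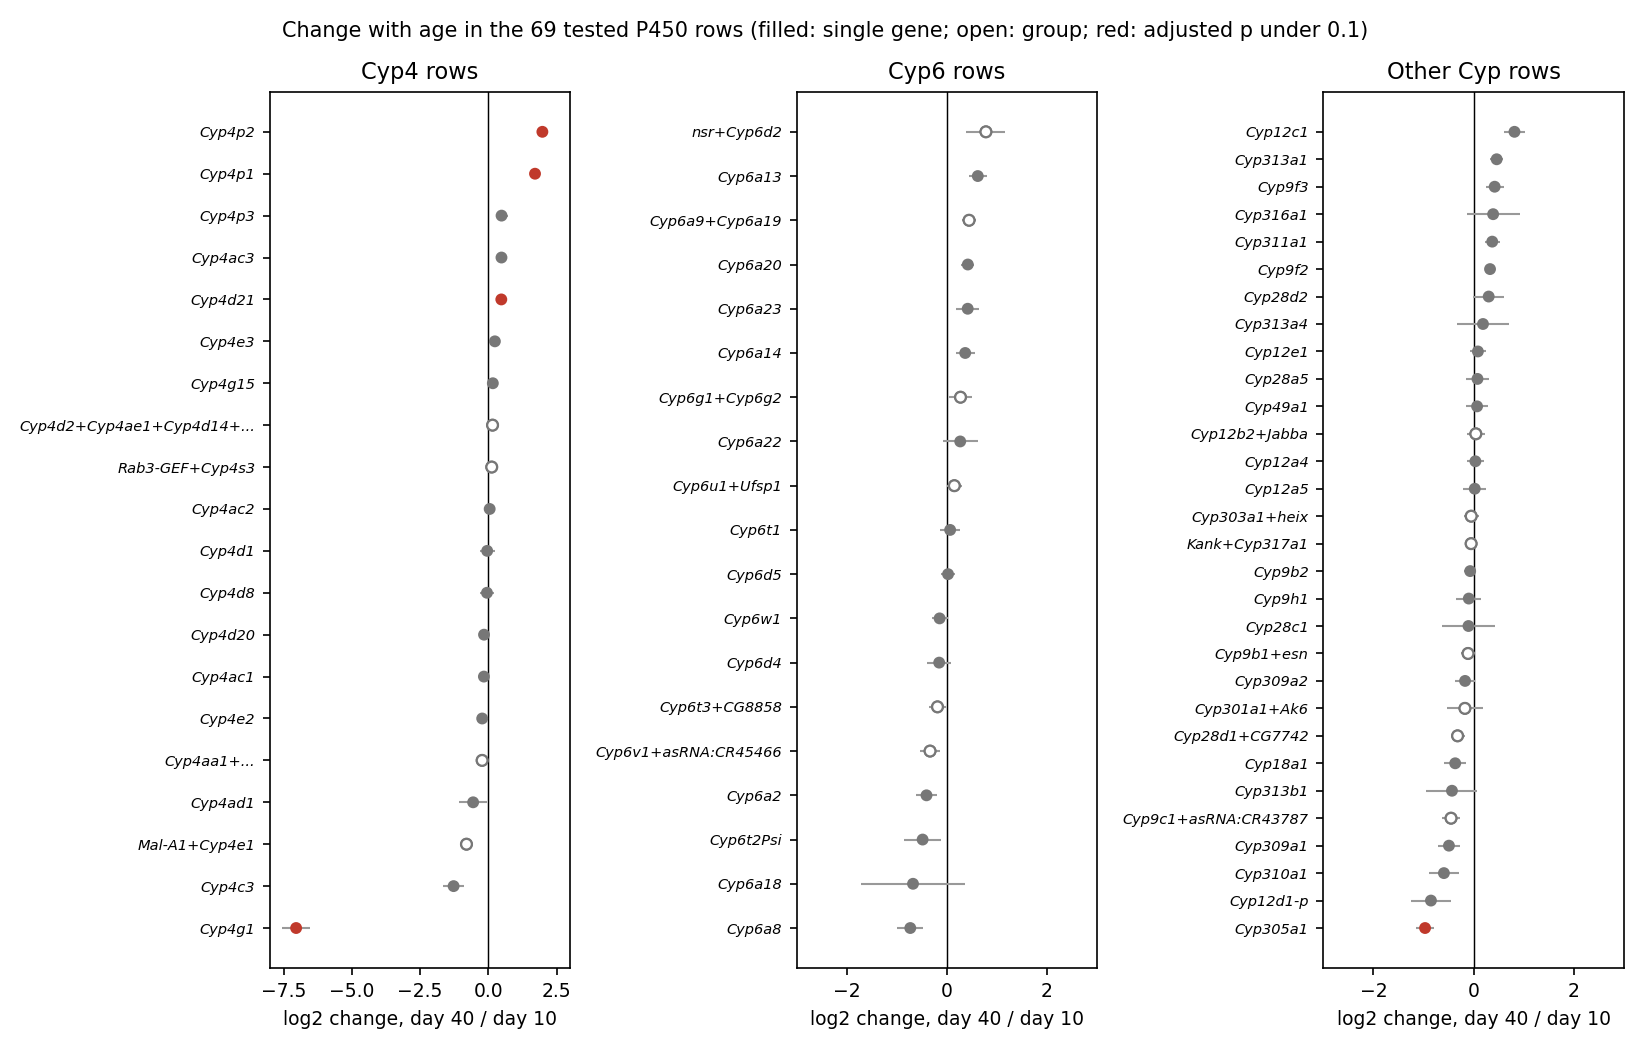
Change in level of the 69 tested P450 entries by subfamily, as the log2 ratio of day 40 over day 10 from edgeR (x axis, with a wider scale for Cyp4), with bars for 1 standard error, filled points for single genes and open points for groups. Red points passed an adjusted p of 0.1: Cyp4p2, Cyp4p1 and Cyp4d21 lie right of zero, and Cyp4g1 (-7.04) and Cyp305a1 (-0.97) lie left of it.

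Cyp4g1 showed the greatest change of the family. It encodes the oxidative decarbonylase that makes the hydrocarbons of the cuticle, an enzyme known from the oenocytes. Cyp4g1 (FBgn0010019) lies on chromosome X from 467057 to 469335 and was counted as 1 exonic part with no annotated junction. It had 12.0, 17.9 and 9.30 normalized counts at day 40, against 779, 2593 and 1737 at day 10. The ages did not overlap, and the highest day 40 library was far below the lowest day 10 library, replicate 1. The raw counts behind these values were 9, 16 and 11 at day 40 and 589, 3378 and 2325 at day 10. Cyp4g1 averaged 13.1 ± 4.41 normalized counts at day 40 and 1703 ± 908 at day 10 (SD, n = 3 each), a change of -7.04 on the log2 scale with a standard error (SE) of 0.51 (edgeR quasi-likelihood adjusted p = 0.000211). The change ranged from -7.39 to -6.63 with each library left out in turn and passed the test each time. Per kb of exonic sequence it was at 5.73 ± 1.93 normalized counts at day 40, the 51st of the 63 single P450 genes, and at 747 ± 398 at day 10, the 6th. Its share of the summed level per kb of the 63 single P450 genes was 0.0399% at day 40 and 5.84% at day 10.

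Other genes of hydrocarbon synthesis and other oenocyte markers were set beside Cyp4g1. None of the 6 tested genes of hydrocarbon synthesis passed the test in edgeR, while 2 had an unadjusted p under 0.05 and 1 passed in DESeq2. All 6 differences were below 0, with a median of -0.371 on the log2 scale. FASN2, a fatty acid synthase of oenocytes, had 14.7, 10.1 and 48.2 normalized counts at day 40, against 71.4, 82.1 and 86.6 at day 10. These ages did not overlap, with a change of -1.66 (SE 0.50, edgeR adjusted p = 0.151). Desat1, the desaturase that acts ahead of Cyp4g1, had a difference of -0.05 on the log2 scale (adjusted p = 0.926 in edgeR). The 6 oenocyte markers (eloF, bond, FASN2, FarO, Desat2 and svp) summed to 1394 to 1698 normalized counts at day 40 and 1464 to 2032 at day 10. Most of each sum was svp, counted in a group, at 890 to 1087 at day 40 and 770 to 1110 at day 10. None of the 5 markers tested passed in edgeR (2 at an unadjusted p under 0.05, and 1 by DESeq2). Differences were below 0 in 4 of the 5 and above 0 in 1. Of these markers, 5 are also in the hydrocarbon list, and the 2 under 0.05 (bond and FASN2) are the same genes in both. None of the 6 was at 0 in all libraries, although eloF had at most 8 counts in any of them. Of these 6, 4 were counted in groups, and the single genes eloF and FASN2 together were at 16.0 to 51.6 at day 40 and at 71.4 to 88.1 at day 10. The part of oenocyte RNA in the change of Cyp4g1 was not tested. Cyp4g15, the other Cyp4g gene and known from the nervous system, had 2565, 2186 and 2131 normalized counts at day 40 and 2118, 2334 and 1700 at day 10. These values overlapped, with a change of 0.16 (SE 0.13, edgeR adjusted p = 0.655).

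**Figure D2:**
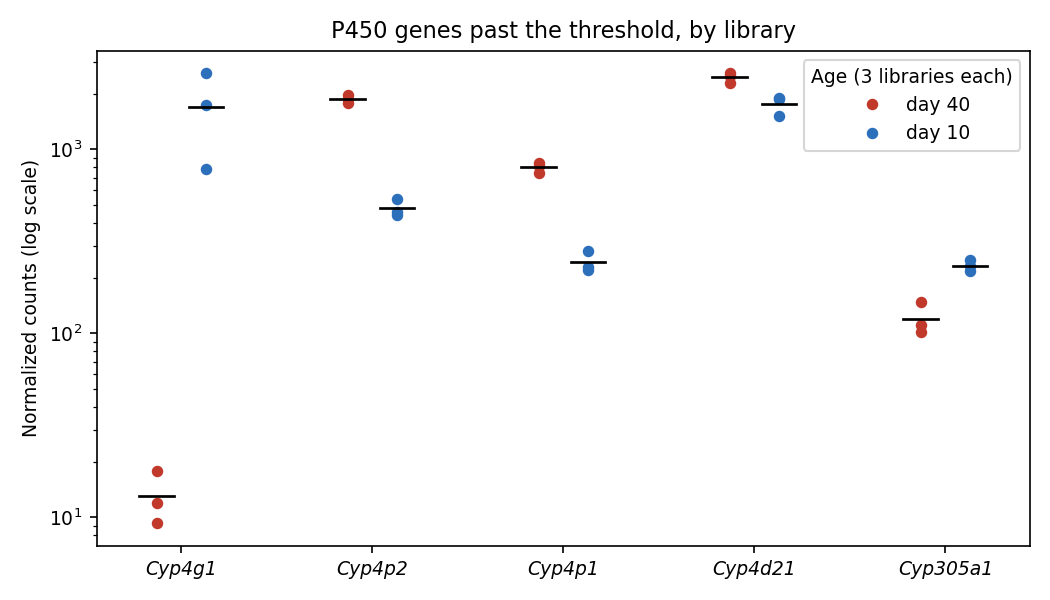
Normalized counts (y axis, log scale) of the 5 P450 genes past the threshold in each library at day 40 (red, left) and day 10 (blue, right), with bars for the mean of 3 libraries. Cyp4g1 lies at 9.30 to 17.9 at day 40 and at 779 to 2593 at day 10, and in all 5 genes the ages do not overlap.

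Cyp4p2 and Cyp4p1, neighbors on chromosome 2R, both rose. Cyp4p2 (FBgn0033395, 2R, 9237512 to 9239831) had 1884, 1979 and 1797 normalized counts at day 40, against 440, 540 and 455 at day 10. Every day 40 library was above every day 10 library. It averaged 1887 ± 91.2 at day 40 and 478 ± 54.1 at day 10 (SD, n = 3 each), a change of 1.97 on the log2 scale, or 3.93-fold (SE 0.11, edgeR adjusted p = 7.86e-05). Cyp4p1 (FBgn0015037, 2R, 9240041 to 9242139) had 745, 839.5 and 809 normalized counts at day 40, against 221, 280.1 and 231 at day 10. Again the ages did not overlap, with a change of 1.71, or 3.26-fold (SE 0.13, edgeR adjusted p = 0.000257). Both passed the test with each library left out, with changes of 1.92 to 2.05 for Cyp4p2 and 1.64 to 1.80 for Cyp4p1. Per kb, Cyp4p2 was the 3rd of the single P450 genes at day 40 and the 15th at day 10, and Cyp4p1 was the 12th at day 40 and the 20th at day 10.

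The third gene of this cluster, Cyp4p3 (2R, 9242320 to 9244410), had 127, 210.4 and 184 normalized counts at day 40, against 116, 143 and 114 at day 10. The ages overlapped, since the lowest day 40 library lay under the highest day 10 library, and the change of 0.48 (SE 0.22, edgeR adjusted p = 0.361) did not pass the test. A test of the difference between Cyp4p3 and its neighbors was not made.

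The rise of Cyp4p2 and Cyp4p1 was spread over both genes. All 8 exonic parts of Cyp4p2 were higher at day 40 with no overlap between the ages, at 3.11 to 4.87 times the day 10 mean. All 8 exonic parts of Cyp4p1 were likewise higher with no overlap, at 2.84 to 4.05 times. Reads over the annotated junctions of Cyp4p2 numbered 791, 989 and 1186 at day 40 and 141, 397 and 311 at day 10. For Cyp4p1 they numbered 290, 358 and 472 at day 40 and 75, 165 and 140 at day 10. Spliced reads were higher at day 40 in every library for both genes, before any scaling by library size.

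**Figure D3:**
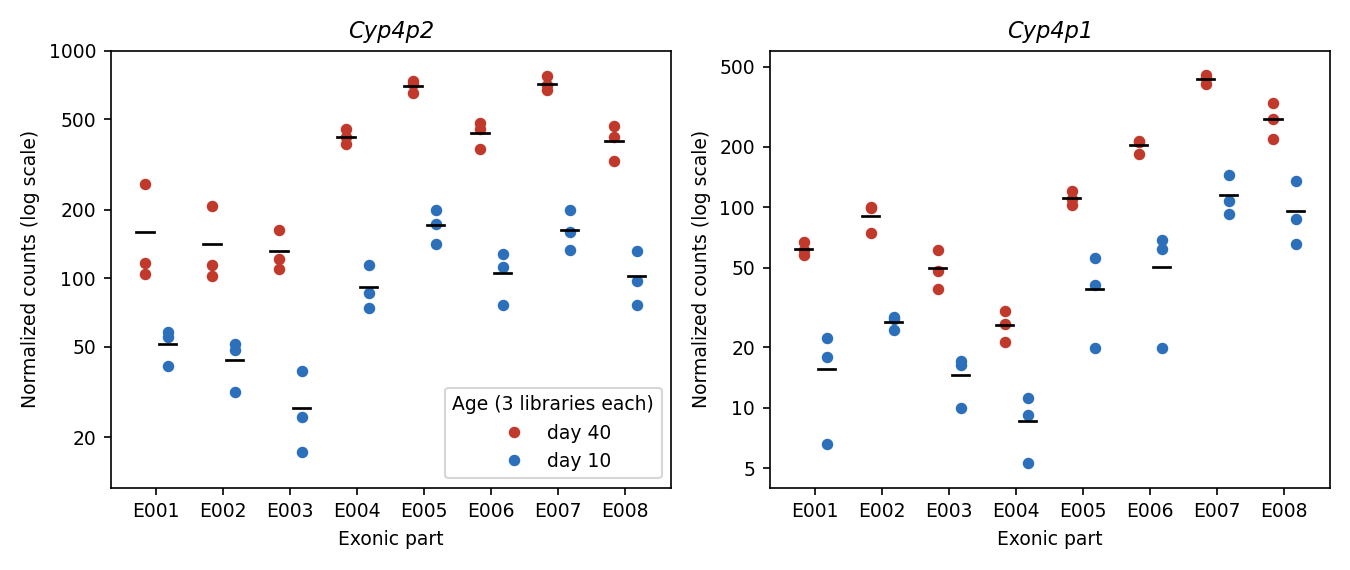
Normalized counts (y axis, log scale) of each of the 8 exonic parts of Cyp4p2 (left) and Cyp4p1 (right) in each library at day 40 (red) and day 10 (blue), with bars for the mean of 3 libraries. The day 40 libraries lie above the day 10 libraries in every part of both genes.

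Cyp4d21, also called sex-specific enzyme 1, is known from the fat body of male heads and has been linked to male courtship. Cyp4d21 (FBgn0031925, 2L, 7605600 to 7607701) had 2588, 2289 and 2512 normalized counts at day 40, against 1521, 1902 and 1887 at day 10. Again the ages were apart. It averaged 2463 ± 155 at day 40 and 1770 ± 216 at day 10 (SD, n = 3 each), a change of 0.47 on the log2 scale, or 1.39-fold (SE 0.12, edgeR adjusted p = 0.0934). The call was close to the threshold: with each library left out the adjusted p was 0.0888 to 0.305, and it passed only without day 10 replicate 3. It also missed the threshold without a filter on low counts (adjusted p = 0.1) and with groups of overlapping genes left out (adjusted p = 0.107), and it passed in DESeq2 (adjusted p = 0.0255). All 5 exonic parts and all 4 annotated junctions of Cyp4d21 had a higher mean at day 40, at 1.285 to 1.591 times the day 10 mean for the parts. The ages were apart in only 2 of the 5 parts and in 0 of the 4 junctions. Of 11 fat body marker entries, 4 (Lsp2, tobi, Yp1 and Yp2) fell and none rose. Differences were above 0 in 4 of the 11. The 11 summed to 97659.5 to 111198 normalized counts at day 40 and 108901 to 136204 at day 10, with none at 0 in all libraries. Most of each sum was apolpp, counted in a group. Without the 4 that fell, the sums were 96355.5 to 109222 at day 40 and 102697 to 131369 at day 10, with overlap. The 4 were dropped by their own result, so this overlap is no test of the other markers. The part of fat body RNA in the level of Cyp4d21 was not tested.

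Cyp305a1, a P450 of the CYP2 clan, fell. Cyp305a1 (FBgn0036910, 3L, 19810403 to 19813339) had 148, 111 and 101 normalized counts at day 40, against 231, 250 and 218 at day 10. Every day 40 library was below every day 10 library. It averaged 120 ± 24.6 at day 40 and 233 ± 16.1 at day 10 (SD, n = 3 each), a change of -0.97 on the log2 scale (SE 0.18, edgeR adjusted p = 0.0272). The change was -1.13 to -0.86 with each library left out, and it missed the threshold without day 40 replicate 2 (adjusted p = 0.158) or day 40 replicate 3 (adjusted p = 0.129). All 3 exonic parts and both annotated junctions had a lower mean at day 40, at 0.414 to 0.934 times the day 10 mean for the parts. The ages were apart in 1 of the 3 parts. Among markers of other cell types, 1 of 8 for hemocytes fell (Hml), 1 of 5 for trachea (dysf) and 2 of 9 for pigment and cone cells (w and Crys), and none rose. The w gene is part of the genotype at both ages, and whether its level follows pigment cells was not tested. At an unadjusted p under 0.05, 2 hemocyte markers, 1 tracheal marker and 2 pigment and cone cell markers were lower at day 40, and 2 pigment and cone cell markers (santa-maria and ninaG) were higher. Differences were above 0 in 4 of 8 hemocyte, 3 of 5 tracheal and 4 of 9 pigment and cone cell markers. Summed hemocyte markers were at 8226 to 9924 normalized counts at day 40 and at 10533 to 12221 at day 10, but without Hml at 6508 to 8316 at day 40 and at 6651 to 8004 at day 10, with overlap. Tracheal markers summed to 1434 to 1821 at day 40 and 1762 to 2636 at day 10, and without dysf to 1391 to 1772 at day 40 and 1402 to 2003 at day 10. Pigment and cone cell markers summed to 60992 to 67874 at day 40 and 57807 to 74941 at day 10, and most of each sum was Pdh and pros, counted in groups. The 5 single genes among these markers, w and Crys included, summed to 8185 to 8476 at day 40. At day 10 these 5 summed to 8607 to 13147, with no overlap. None of 9 glial markers passed in edgeR (2 at an unadjusted p under 0.05, and 0 by DESeq2), nor did any of 7 muscle markers (1 at an unadjusted p under 0.05, and 1 by DESeq2). The part of these cell types in the changes of P450 genes was not tested.

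By level, a few genes made up most of the summed level of the 63 single genes. The 21 P450 genes counted in groups are left out of the levels, shares and ranks per kb. Per kb of exonic sequence, 24 of the 63 single genes had a mean of at least 100 normalized counts, 24 had 10 to 100 and 15 had fewer than 10. The 10 single genes highest at day 40 held 69.9% of the summed level per kb of the 63 at day 40. The 10 highest at day 10 held 67.1% at day 10. Cyp313a1 was the highest at both ages, with 2408 ± 116 normalized counts per kb at day 40 and 1745 ± 231 at day 10 (SD, n = 3 each). Its libraries had 3708, 3933 and 4083 normalized counts at day 40, against 2436, 3184 and 2875 at day 10. The day 40 libraries lay above all day 10 libraries, and the change of 0.46 (SE 0.13) had an adjusted p of 0.110 in edgeR and of 0.0273 in DESeq2. With the replicate number as a block it passed in edgeR (adjusted p = 0.076). Next by mean level per kb came Cyp4d21 (1352 ± 85.3 at day 40 and 972 ± 118 at day 10), Cyp6a2 (894 ± 154 at day 40 and 1177 ± 330 at day 10), Cyp9f2 (1008 ± 16.3 at day 40 and 801 ± 92.7 at day 10) and Cyp4g15 (872 ± 89.8 at day 40 and 779 ± 122 at day 10). Cyp6d5, Cyp4p2, Cyp6w1, Cyp6a20 and Cyp4e2 completed the 10 genes highest by the mean of both ages. At day 40, Cyp4p2 (1062 ± 51.3) and Cyp9f2 (1008 ± 16.3) were neighbors in this order whose libraries overlapped, while Cyp313a1 stood above all others at both ages.

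**Figure D4:**
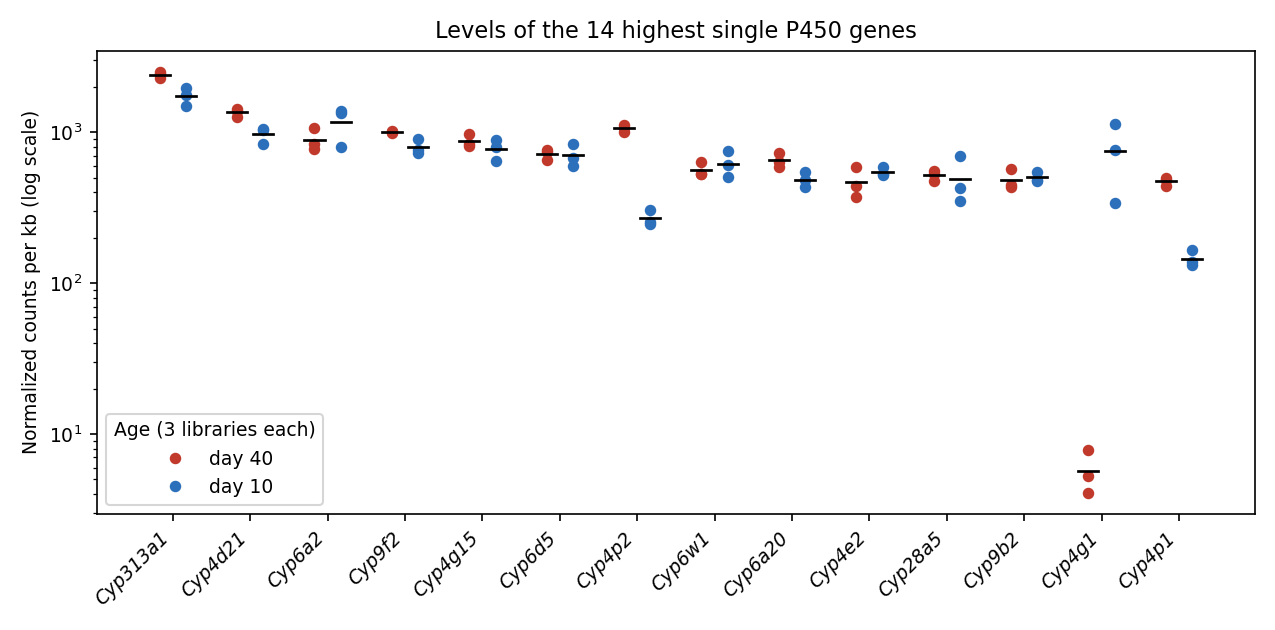
Normalized counts per kb of exonic sequence (y axis, log scale) of the 14 single P450 genes with the highest mean level, in each library at day 40 (red, left) and day 10 (blue, right), with bars for the mean of 3 libraries. Cyp313a1 is the highest gene at both ages, at 2408 per kb at day 40 and 1745 at day 10, and Cyp4g1 stands apart at 5.73 per kb at day 40.

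Among the 20 Cyp4 entries tested, 3 rose, 1 fell and 16 did not pass, with a median change of -0.00073 on the log2 scale. The summed normalized counts of the 16 single Cyp4 genes were 9960 ± 518 at day 40 and 8881 ± 1329 at day 10 (SD, n = 3 each), and the libraries overlapped. Whether they overlapped turned on Cyp4g1. Without it, an alternative chosen after seeing the data, the sums were 10526, 9788 and 9527 at day 40 and 6864, 7693 and 6977 at day 10, with no overlap. The ratio of the means, day 40 over day 10, was 1.12 with Cyp4g1 and 1.39 without it. Without all 4 genes past the threshold (Cyp4g1, Cyp4p2, Cyp4p1 and Cyp4d21) the 12 other single Cyp4 genes summed to 4800 ± 461 at day 40 and 4685 ± 283 at day 10 (SD, n = 3 each), a ratio of 1.02 with overlap. Cyp4c3 had 21.3, 20.1 and 11.8 normalized counts at day 40, against 54.2, 34.5 and 39.6 at day 10. The ages did not overlap, but the change of -1.28 (SE 0.38) had an adjusted p of 0.151 in edgeR. Cyp4e1, counted together with the maltase gene Mal-A1, had a joint change of -0.80 (adjusted p = 0.136 in edgeR and 0.0494 in DESeq2). Cyp4e2, one of the 10 highest genes, had 1119, 836 and 711 normalized counts at day 40, against 1112, 985 and 1011 at day 10. These values overlapped, with a change of -0.23 (adjusted p = 0.581 in edgeR).

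None of the 19 Cyp6 entries tested passed in edgeR, while 1, Cyp6a13, passed in DESeq2. In edgeR 4 of the 19 had an unadjusted p under 0.05, beside 1325 of all 9255 entries tested. The changes of the Cyp6 entries had a median of 0.07 on the log2 scale. The 16 single Cyp6 genes summed to 6496 ± 623 normalized counts at day 40 and 6641 ± 1311 at day 10 (SD, n = 3 each), with overlap. Cyp6a2, a gene known for induction by drugs and for insecticide metabolism, had 1788, 1406 and 1296 normalized counts at day 40, against 1335, 2326 and 2252 at day 10. Day 10 replicate 1 lay among the day 40 libraries, and the change of -0.41 (adjusted p = 0.446 in edgeR) became -0.62 without that library (adjusted p = 0.0659 in edgeR). Cyp6a8, another drug-induced gene, had 140, 171 and 177 normalized counts at day 40, against 189, 239 and 375 at day 10. Again the ages were apart, and the change of -0.73 (adjusted p = 0.225 in edgeR) passed without day 10 replicate 1 (-0.91, adjusted p = 0.067).

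Cyp6a20, known for its effect on aggression between males, had 1321, 1141 and 1065 normalized counts at day 40, against 779, 864 and 978.5 at day 10. The day 40 libraries lay above all day 10 libraries, with a change of 0.42 (SE 0.13, edgeR adjusted p = 0.162), and it passed without day 10 replicate 3 (adjusted p = 0.0973). Cyp6a13 had 310.7, 319 and 255 normalized counts at day 40, against 148, 208 and 214 at day 10. The ages were apart here as well, with a change of 0.62 (SE 0.18, edgeR adjusted p = 0.142 and 0.0755 in DESeq2). Cyp6g1, the gene behind resistance to DDT in many wild flies, and Cyp6g2 were counted together, at 1220, 1189 and 915 normalized counts at day 40 and 579, 972.5 and 1172 at day 10. Their values overlapped, with a joint change of 0.27 (adjusted p = 0.685 in edgeR). Log2 differences of the other Cyp6 genes linked to resistance to insecticides or to drug responses were 0.02 for Cyp6d5 (adjusted p = 0.969), -0.14 for Cyp6w1 (adjusted p = 0.761) and 0.42 for Cyp6a23 (adjusted p = 0.482), all in edgeR's quasi-likelihood test. Cyp6a17, known for its role in temperature preference, had at most 3 counts in any library and no fold is given.

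Of the 30 other entries tested, 1 fell (Cyp305a1), none rose, and 3 passed in DESeq2, 2 of them higher. In edgeR 9 of the 30 had an unadjusted p under 0.05, beside 1325 of all 9255 entries tested. The median change of the 30 entries was -0.05 on the log2 scale. The 31 single genes summed to 9692 ± 150 normalized counts at day 40 and 8310 ± 549 at day 10 (SD, n = 3 each) with no overlap. This gap rested mostly on Cyp313a1: without it, an alternative chosen after seeing the data, the sums were 6112, 5796 and 5445 at day 40 and 5552, 5760 and 5122 at day 10, and they overlapped. Mitochondrial members numbered 9 genes and 8 tested entries. None of these passed in edgeR (1 at an unadjusted p under 0.05, and 1 by DESeq2), and their changes ran from -0.85 (Cyp12d1-p) to 0.82 (Cyp12c1). Cyp12c1 had 139, 151 and 107 normalized counts at day 40, against 64.8, 88.3 and 70.2 at day 10. The ages did not overlap, and its adjusted p of 0.102 in edgeR was the lowest above the threshold, with 0.064 in DESeq2. Cyp12a4, linked to resistance to lufenuron, differed by 0.04 (adjusted p = 0.958 in edgeR).

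Cyp12d1-p and Cyp12d1-d are near-identical copies linked to resistance to insecticides, and how the authors' counting split reads between them is uncertain. No read over the 3 annotated junctions of either gene was counted in any library. Cyp12d1-p had 12.0, 16.8 and 27.0 normalized counts at day 40, against 33.1, 30.7 and 38.8 at day 10. Again the ages were apart, with a change of -0.85 (adjusted p = 0.393 in edgeR). Cyp12d1-d had 0, 0 and 0 counts at day 40, against 2, 9 and 31 at day 10, and was too low for the test. Taking 3 counts as the limit that a count of 0 allows in each library, it was at least 3.31-fold lower at day 40, a bound that covers counting error only. The bound turned on day 10 replicate 3, which held most of the day 10 counts, and was 1.45-fold without it. Without a filter on low counts it passed in edgeR.

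None of the hormone genes of the family passed the test in edgeR, at an unadjusted p under 0.05 or in DESeq2. Cyp18a1, which inactivates 20-hydroxyecdysone, had 192, 131 and 122 normalized counts at day 40, against 231, 173.5 and 167 at day 10. The ages overlapped, with a change of -0.37 (SE 0.22, edgeR adjusted p = 0.508). Cyp6t3, linked to ecdysone synthesis in the larva, was counted with CG8858, and the pair differed by -0.19 (adjusted p = 0.700 in edgeR). Cyp301a1, linked to cuticle formation, was counted with Ak6 in an entry that differed by -0.17 (adjusted p = 0.892 in edgeR), and Cyp303a1, linked to bristle development, was counted with heix in an entry that differed by -0.05 (adjusted p = 0.937 in edgeR). Cyp311a1, linked to phospholipid in the developing wing, had 349, 313 and 295 normalized counts at day 40, against 219, 288 and 229 at day 10. The day 40 libraries lay above all day 10 libraries, with a change of 0.37 (adjusted p = 0.277 in edgeR). Outside the mitochondrial and CYP2 groups, Cyp9f2 had 1748, 1803 and 1763 normalized counts at day 40, against 1344, 1593 and 1287 at day 10. The ages did not overlap, with a change of 0.33 (SE 0.11, edgeR adjusted p = 0.179). Cyp28a5 differed by 0.08 (adjusted p = 0.926 in edgeR).

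**Figure D5:**
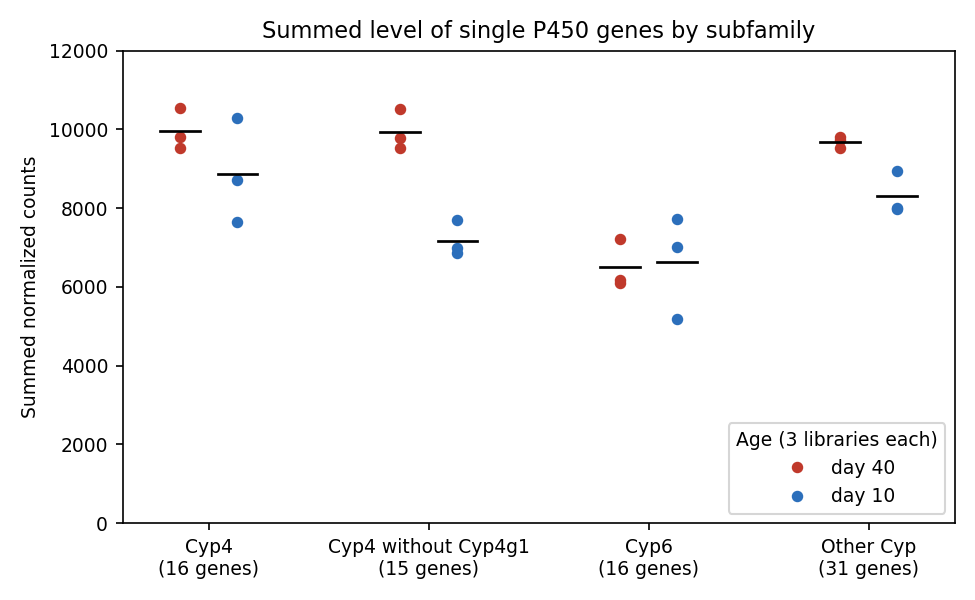
Summed normalized counts (y axis) of the single P450 genes of each subfamily in each library at day 40 (red, left) and day 10 (blue, right), with bars for the mean of 3 libraries. The Cyp4 sums overlap between the ages with Cyp4g1 and not without it, the Cyp6 sums overlap, and the sums of the other genes do not, although they overlap without Cyp313a1.

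Spread between libraries differed by age. The median coefficient of variation over the 69 P450 entries was 11.5% at day 40 and 17.6% at day 10, beside 11.3% at day 40 and 17.5% at day 10 over all entries tested. Day 10 replicate 1 was the lowest of the 3 day 10 libraries in 37 of 69 P450 entries (53.6%), beside 38.6% of all entries. Without it, 5 P450 entries fell in edgeR instead of 2, the added ones being Cyp6a2, Cyp6a8 and Mal-A1+Cyp4e1, and 2 rose instead of 3.

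By position, 45 of the 84 P450 genes lay in 16 clusters in which neighboring P450 genes were less than 10 kb apart. The Cyp4p cluster was the only one of the 16 with a gene past the threshold. The largest cluster held 8 genes on 2R, and the differences of its entries had both signs. They were 0.27 for Cyp6a22, 0.42 for Cyp6a23, 0.44 for Cyp6a9+Cyp6a19, 0.42 for Cyp6a20, -0.73 for Cyp6a8 and -0.05 for Kank+Cyp317a1, and the lowest adjusted p among them was 0.162 in edgeR.

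The enzymes and regulators that work with P450s were counted by list. Of the genes listed, nvd (ecdysteroid synthesis), br (ecdysone response), and FASN1 and FASN3 (hydrocarbon synthesis) were not analysed here, nor were FASN1, wupA and btl among the fat body, muscle and tracheal markers. None of 6 redox partner entries passed in edgeR, with none at an unadjusted p under 0.05 and none by DESeq2. Cpr, the reductase shared by microsomal P450s, had 2384, 1789 and 1906 normalized counts at day 40, against 2197, 2224 and 2224 at day 10. These values overlapped, with a change of -0.13 (SE 0.12, edgeR adjusted p = 0.700). The ecdysteroid synthesis list, in which spo, spok, phtm, dib, sad and shd are P450s under other names, had 0 of 7 entries past the threshold in edgeR, at an unadjusted p under 0.05 or in DESeq2. Among ecdysone receptor and response genes, 1 of 8 entries rose: Hr38, a nuclear receptor counted in a group, by 1.14 (SE 0.28, edgeR adjusted p = 0.0798). None of 9 juvenile hormone genes passed in edgeR (2 at an unadjusted p under 0.05, and 0 by DESeq2), and neither did any of 6 regulators of the response to foreign compounds (2 at an unadjusted p under 0.05, and 0 by DESeq2).

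Exon and junction usage, the measure that the series was made for, was tested within single genes as the count of a feature against the rest of its gene. Of 319 features in 48 P450 genes, none had an adjusted p under 0.05 in edgeR, where 0.00334% of the 59968 features of the series did. Without adjustment, 3 P450 features (0.94%) had a p under 0.05, beside 3.02% of all features. Those 3 were an exonic part of Cyp4d20, a junction of Cyp28d2 and an exonic part of Cyp310a1, named after their values were seen. No new junction was counted in a single P450 gene.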

How the data were processed

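Eyes were dissected from male flies at day 40 and day 10 after eclosion, and each of the 6 samples gave 1 library (3 per age). For each library the authors deposited unnormalized counts of genes, exonic parts and junctions in JunctionSeq's layout. The submitters' processing notes name Trimmomatic, TopHat and the build BDGP6. A deposited table gives the position of each feature, and its columns of the authors' own comparison (fold changes and p-values) were not used. The authors counted overlapping genes together, and strand was not used in that table. Coordinates are those of that table, counted from 1, and symbols were found for 17253 of 17560 gene identifiers. By a chi-square check, no library was a copy of another of its age.

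Gene counts were tested with edgeR 4.0.16 in R 4.3.3 (quasi-likelihood test, TMM normalization, default low-count filter, age as the only term), with Benjamini-Hochberg adjustment over all entries and a threshold of 0.1. Of the 80 P450 entries, 11 were too low for the test. Usage was tested in single genes on features with a mean of at least 5 normalized counts, with a threshold of 0.05. DESeq2 1.42.0 was an alternative for gene counts. Each edgeR test was also tried on simulated data. The other alternatives were another normalization, other filters, single genes alone, a replicate block, a threshold of 0.05 and leaving out each library in turn. Subfamily sums without Cyp4g1, without Cyp313a1 and without the genes past the threshold, marker sums without the markers that fell, and the bound for Cyp12d1-d without each day 10 library were added after the data were seen. The sums leave out members chosen by their values, so an overlap of the rest is a description and no test.

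The family, gene lists and marker lists were chosen with earlier results of these data known. Genes described are those past the threshold, the 10 highest per kb, the 3 rising and 3 falling entries with the lowest p-values, and those with a role listed for hydrocarbons, hormones, foreign compounds, behavior or wing lipid. Cyp4p3, Cyp4c3, Cyp6a13 and Cyp12c1 and the members of the largest cluster fall outside this rule and were chosen after their values were seen. P-values measure the spread between these libraries alone.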

Additional observations from a re-analysis of the deposited data

How the results depend on the processing

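Cyp4g1, Cyp4p2 and Cyp4p1 kept their direction and their call in edgeR and DESeq2 under every alternative tried. Cyp4d21 and Cyp305a1 did not, as given above. Over all entries, 198 rose and 183 fell. A threshold of 0.05 gave 128 higher and 93 lower, and DESeq2 gave 278 higher and 323 lower. DESeq2 gave a p-value for 13997 entries, in place of 9255, but no adjusted p for some with low counts. Leaving out 1 library gave 74 to 233 higher and 41 to 226 lower, where each library left out also changed how many entries were tested. For P450 entries, 3 rose and 2 fell. DESeq2 gave 6 higher, and leaving out 1 library gave 2 to 4 higher and 1 to 5 lower, with 5 without day 10 replicate 1 and 1 without day 40 replicate 2 or 3. The log2 ratio of the Cyp4 sums was 0.165, and 0.47 without Cyp4g1. That of the other genes was 0.22, and 0.079 without Cyp313a1.

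Of 320 alternative values for 25 entries described, 294 kept direction and side of the threshold, 10 lost the call, 8 gained it and 8 turned direction. Those that turned were small changes. With each library left out, Cyp12a4 ran from -0.12 to 0.17, Cyp28a5 from -0.11 to 0.42, Cyp301a1+Ak6 from -0.44 to 0.0070, Cyp6d5 from -0.077 to 0.19 and Cyp6w1 from -0.26 to 0.038. No P450 feature passed the usage test under its 9 alternatives, with 2 to 13 at an unadjusted p under 0.05. The cause of these shifts was not tested.

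No pairing by replicate number was seen: deviations from the age means correlated at 9.875e-05, -0.01 and 0.15 across genes for same-numbered libraries. Libraries with different numbers correlated at -0.17 to 0.16, and 3 libraries per age cannot exclude a pairing. With the replicate number as a block, 221 entries rose and 243 fell, and among P450 entries 4 rose and 2 fell, the added one being Cyp313a1. Low counts limit Cyp12d1-d, Cyp6a17 and the other untested genes.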

Other observations

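The cyclophilin genes that share the Cyp prefix were counted in groups. Cyp1, counted with SWIP, was in an entry at 4135, 4226 and 3593 normalized counts at day 40 and at 3303, 3893 and 3682 at day 10. These values overlapped, with a change of 0.13 on the log2 scale (SE 0.12, edgeR quasi-likelihood adjusted p = 0.696). Cyp40, counted with CG3335 and Or67b, was in an entry at 310.7, 299 and 349 normalized counts at day 40 and at 350.3, 302 and 346 at day 10. These values overlapped too, with a change of -0.06 (adjusted p = 0.906 in edgeR).

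Among the P450s of ecdysteroid synthesis that carry other names, the single genes spok, phtm and shd together were at 98.9 to 117 normalized counts at day 40 and at 67.4 to 81.4 at day 10. Each of these genes alone overlapped between the ages. The whole synthesis list, groups included, summed to 1819 to 2064 at day 40 and 1982 to 2320 at day 10, with overlap. Spok had 18.7, 39.2 and 26.2 normalized counts at day 40 and 17.2, 13.05 and 20.9 at day 10. The ages overlapped, with a change of 0.71 on the log2 scale (SE 0.43, edgeR adjusted p = 0.527).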
